A study of Mus musculus with 16 samples.

Results

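The antigen-receptor immediate-early genes described here are Nr4a1, Egr1, Egr2, Fos, Fosb, Jun, Junb, Myc, Dusp2 and Ier2 in sorted mouse lymphocytes. Every probe set that the platform annotation gives one of these symbols was taken, which gave 13 probe sets for 10 genes, of 12422 probe sets and 8251 named genes on the array. Egr1, Fos and Junb had a brighter and a dimmer probe set, and the other 7 genes had 1 each. No probe set carrying a member symbol carried several symbols, and the rule uses names and no measured value.

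The study set innate-like lymphocytes against conventional ones on 16 single-colour arrays in 6 groups, which form 3 pairs. NKT cells were CD3+ CD4+ NK1.1+ spleen cells and CD4T cells were CD3+ CD4+ NK1.1- spleen cells, both from wild-type C57BL/6 mice (n = 3 arrays each, about 100000 cells sorted). CD8aaT cells (TCRb+ CD8a+ CD8b-) and CD8abT cells (TCRb+ CD8a+ CD8b+) were both grown in reaggregate thymic organ culture (RTOC), in which thymocytes mature among thymic stromal cells (n = 3 each, about 50000 cells). The Smcy agonist peptide was given at a labelled high dose of 10 mM for CD8aaT cells and a low dose of 100 nM for CD8abT cells, so agonist dose and lineage cannot be told apart in that pair. The millimolar unit is printed as labelled. B1 cells were peritoneal IgM(hi) IgD(int) CD11b+ cells and B2 cells were splenic IgM(int) IgD(hi) CD11b- cells (n = 2 each, about 100000 cells), so subset and organ cannot be told apart there. Neither the ages of the mice nor the strain behind the RTOC was given. The labels call the replicates biological without naming animals or days, so that the p-values reflect only how much these samples varied.

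Immediate-early genes are transcribed within minutes of a stimulus because the factors that switch them on are already in the cell and need only be modified. In lymphocytes the T cell or B cell receptor acts through calcium and the Ras-ERK kinase cascade on factors such as SRF, its ternary-complex partners and CREB. Most of the products are transcription factors that carry the signal to later genes, and some, such as the phosphatase Dusp2, switch the signal off again. Nr4a1 and the Egr genes are widely used as readouts of antigen-receptor signal strength in thymocytes and B cells, and Fos, Jun and Egr1 are also known to be induced by handling and tissue dissociation.

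The start regions of 4 members are shown because their letters can be read beside the values below. RefSeq start windows were found for 7 of the 10 genes, and none for Myc, Egr1 or Ier2. The 250 bases upstream of each start were taken. Letters are printed for build GRCm38.p6, all on the plus strand. Searched on both strands were TGACG (the core of a CREB or ATF site), GCGNGGGCG (the Egr site), CACGTG (the E-box that Myc with Max can bind), TATAAA and the CArG box bound by SRF. Capitals mark a match, which for TGACG reads CGTCA, and for the Egr site CGCCCCCGC, where it lies on the minus strand. The Dusp2 window is chr2:127335909-127336158, that of Nr4a1 is chr15:101266596-101266845, that of Fos is chr12:85473640-85473889, and the Egr2 stretch of 30 bases, held to its CArG box, is chr10:67537787-67537816.
Dusp2: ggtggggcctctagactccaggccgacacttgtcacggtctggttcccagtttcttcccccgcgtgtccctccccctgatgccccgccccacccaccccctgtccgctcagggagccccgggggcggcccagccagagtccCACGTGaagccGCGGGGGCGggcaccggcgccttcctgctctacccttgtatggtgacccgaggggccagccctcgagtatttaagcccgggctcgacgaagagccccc
Nr4a1: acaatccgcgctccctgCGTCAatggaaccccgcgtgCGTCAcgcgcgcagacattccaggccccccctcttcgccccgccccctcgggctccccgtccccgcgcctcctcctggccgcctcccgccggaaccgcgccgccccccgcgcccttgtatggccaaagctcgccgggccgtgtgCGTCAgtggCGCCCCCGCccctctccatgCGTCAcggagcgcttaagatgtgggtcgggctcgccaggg
Fos: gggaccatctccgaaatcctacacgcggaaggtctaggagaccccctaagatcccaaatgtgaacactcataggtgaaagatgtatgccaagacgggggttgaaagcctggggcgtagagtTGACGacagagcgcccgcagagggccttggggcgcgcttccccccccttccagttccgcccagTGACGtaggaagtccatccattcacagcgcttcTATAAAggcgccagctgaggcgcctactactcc
Egr2: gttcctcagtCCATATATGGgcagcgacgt

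TGACG was in the windows of 5 of the 7 genes (Egr2, Fos, Fosb, Junb and Nr4a1), and in 17.8% of 32851 windows of the same length. The Egr site was in 3 (Dusp2, Fosb and Nr4a1), against 4.7% of all windows. CACGTG was in 2 (Dusp2 and Egr2), against 6.02%. The CArG box was in Egr2 alone of the 7, against 1.47%, and TATAAA in Fos alone, against 12.4%. Egr2 had 5 windows and was counted where any of them matched, while the percentages are shares of single windows. These matches describe letters in a short window and show no binding. Sites farther upstream were not searched.

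The deposited values were intensities made with RMA, a method that combines the probes of a probe set, and they were given on a linear scale. The median intensity of an array was between 49.6 and 54.1 in NKT and CD4T, 30.4 to 31.8 in CD8aaT and CD8abT, and 69.3 to 76.2 in B1 and B2. Because of this, a level is set only against its partner group, and across pairs each probe set is given as a percentile within its own array. Cd79b, the B cell receptor signalling chain, was 2857 to 5202 in B cells and 52.8 to 499.99 in T cells, and Cd3d, a T cell receptor chain, was 227.9 to 785 in T cells and 15.7 to 20.5 in B cells. The gate gene Itgam (CD11b) was 40.3 and 42.3 in B1 cells, against 40.5 and 41.6 in B2 cells, so the arrays did not show that gate. The actin control ratio, that is the intensity of the 3′ probe set over that of the 5′ one, which is higher where RNA is shorter, ran between 3.56 and 11.6. It was 5.15 to 5.80 in CD8aaT and 6.57 to 11.6 in CD8abT. The like ratio of Gapdh was 7.37 in the third CD8aaT array and 9.47 in the third CD8abT array. In the other RTOC arrays the Gapdh ratio was 17.6 to 30.4. The 5′ 18S control probe set was high in the first replicate of both groups of a pair (675 in NKT and 1326 in CD4T, 776 in B1 and 877 in B2) and low in the other arrays of these groups (33.4 to 62.6). In the RTOC pair it was lowest in the first replicate of both groups (66.5 in CD8aaT and 129 in CD8abT). Same-numbered arrays of a pair thus shared a property beyond their group, and in the T cell pairs an alternative with the replicate number as a block is given for the members and list genes whose call it changed. In the NKT pair the check of these numbers did not tell 2 from 3, so its block results rest on a pairing shown only in part.

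Nr4a1, the orphan nuclear receptor of the set, was lower in NKT than in CD4T cells in every same-numbered pair, but this difference passed the test only with the replicate block. NKT arrays gave intensities of 127, 128 and 113, against 166, 169.8 and 183 in CD4T arrays. The groups did not overlap. The log2 difference was -0.50 ± 0.35 (SE, n = 3 each), 1.41-fold lower, with an adjusted p of 1.00 in limma and 0.017 with the replicate block. In bulk samples such as these, fewer cells of a type and less RNA per cell cannot be told apart.

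In the RTOC pair Nr4a1 followed the replicate number more than the group. CD8aaT arrays gave 57.7, 71.4 and 149.9, against 63.1, 75.7 and 180.4 in CD8abT arrays. The groups overlapped, the third replicate was high in both, and within each number the high-dose CD8aaT sample was a little lower. The difference was -0.16 ± 0.35 (95% interval -0.92 to 0.60, n = 3 each) with a limma adjusted p of 0.94, and 0.39 with the block. B1 arrays gave 103 and 109, against 144 and 137 in B2 arrays. Both B1 arrays were the lower ones, with a difference of -0.41 ± 0.43 (95% interval -1.34 to 0.52, n = 2 each) that did not pass the test (limma adjusted p = 1.00). Nr4a1 was thus lower in the innate-like array in 3 of 3 same-numbered pairs of each T cell comparison, and in B cells without overlap, with no call in the fit without the block. Without the third CD8abT replicate the RTOC difference was 0.30. Most probe sets were lower too, since 43.1%, 39.2% and 37.2% of all lay above 0 in the NKT, RTOC and B cell pairs. In B1 minus B2 20.1% of all were lower without overlap. The share lower in every same-numbered pair was not taken.

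**Figure D1:**
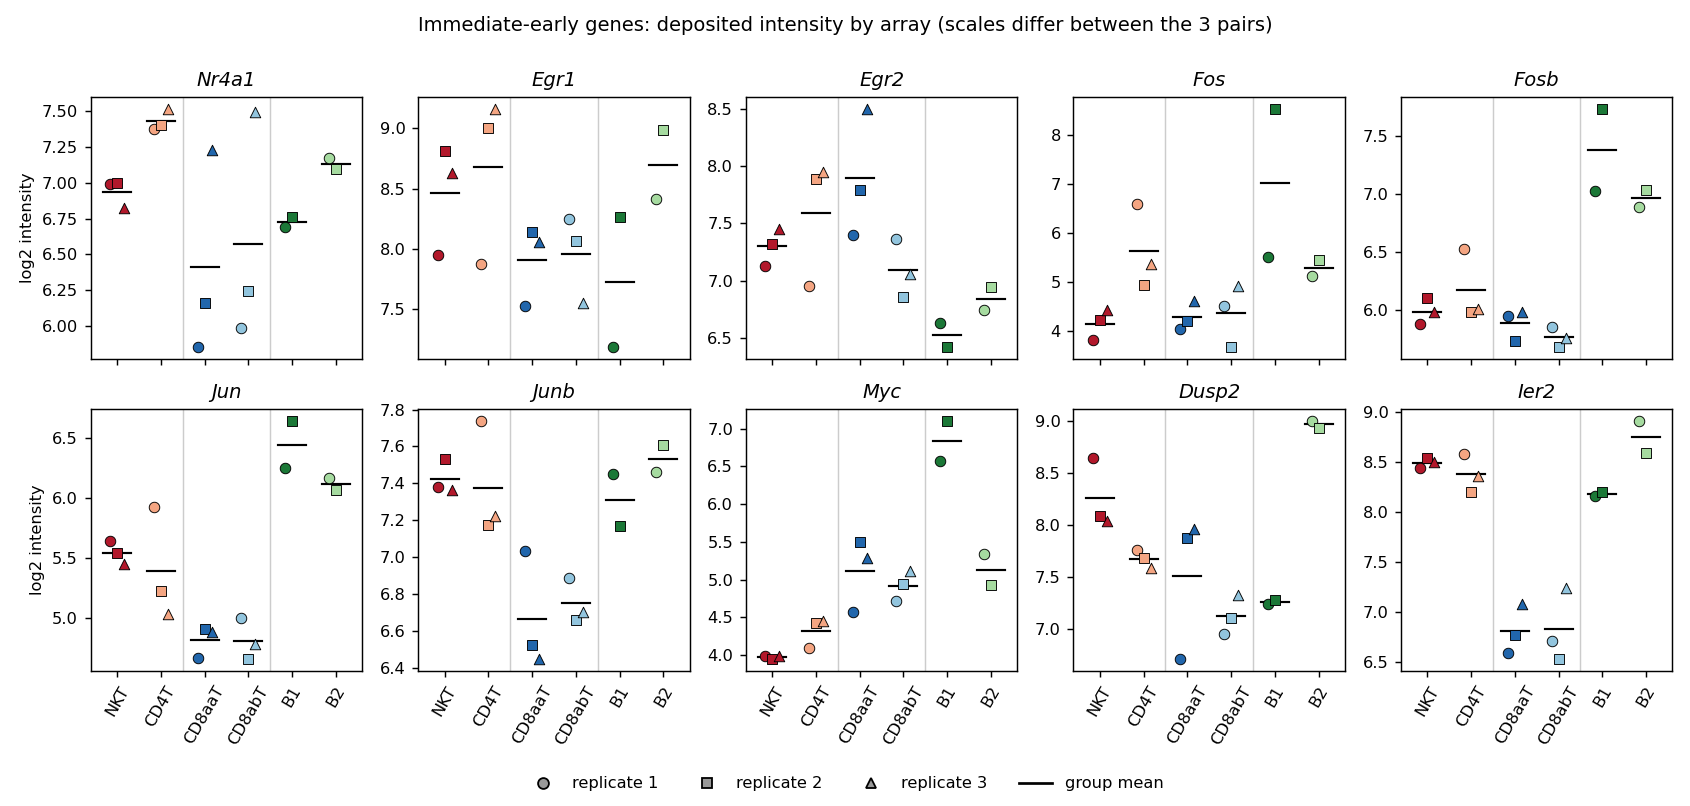
Log2 intensity of the 10 genes (brighter probe set where there were 2) on each of the 16 arrays, by group, with symbols for the replicate number and a line at the group mean. Nr4a1 sits lower in NKT than in CD4T, Myc is high and Dusp2 low in B1 against B2, and Fos is high in 1 of the 2 B1 arrays.

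Egr1, a zinc-finger factor induced through ERK, was among the brightest members and varied more between replicates than between groups. Its brighter probe set read 248, 449 and 396 in NKT, against 235, 512 and 572 in CD4T. The first replicate was the low one in both groups, the groups overlapped, and the difference was -0.21 ± 0.37 (95% interval -1.003 to 0.57). CD8aaT arrays read 184, 282 and 266, against 304, 268 and 188 in CD8abT arrays. These overlapped fully, with a difference of -0.05 ± 0.37 (95% interval -0.84 to 0.74). B1 arrays read 146 and 308, against 341 and 507 in B2 arrays. Both B1 values lay below both B2 values, 1.96-fold on the mean of logs, and the difference of -0.97 ± 0.45 had an unadjusted p of 0.0486 and a limma adjusted p of 1.00. Without the first B1 replicate it was -0.43, and without the second it was -1.51. The dimmer probe set of Egr1 lay between 12.1 and 43.9 on all arrays and differed by at most 0.14 log2 units in any pair, so it did not show the B cell difference.

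Egr2, an Egr factor that NKT cells need to develop in the thymus, had its clearest difference in the RTOC pair, where the high-dose CD8aaT cells were higher. CD8aaT arrays read 168, 221 and 361, against 165, 116 and 133 in CD8abT arrays. The groups did not overlap, though the first replicates were nearly level (168 and 165). The difference was 0.80 ± 0.28, 1.74-fold higher (n = 3 each), with an unadjusted p of 0.0132, a limma adjusted p of 0.62, and 0.087 with the block, so it was not called. It was 0.4987 without the third CD8aaT replicate, and 0.29 with the actin ratio as a covariate. In the other pairs the difference was smaller and negative. NKT arrays read 140.3, 159 and 175, against 124, 236 and 247 in CD4T arrays, with overlap and a difference of -0.29 ± 0.28. B1 arrays read 99.4 and 85.8, against 107 and 123 in B2 arrays, without overlap and with a difference of -0.32 ± 0.34. The test of the NKT pair against the CD8aaT pair gave -1.09 ± 0.40 (limma adjusted p = 0.63), so the RTOC difference was not shown to be particular to that pair.

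Fos, the AP-1 subunit that pairs with Jun proteins, varied more between replicates than nearly all other probe sets. The within-group SD of its brighter probe set was 0.85 log2 units, at the 99.5th percentile of all probe sets, where the median was 0.22. B1 arrays read 45.7 and 368, against 34.9 and 43.4 in B2 arrays. One B1 array carried the difference, and the other lay just above the B2 arrays. The difference was 1.74 ± 0.73, 3.33-fold higher, with a limma adjusted p of 0.85. Without the first B1 replicate it was 3.24 (adjusted p = 0.014), and without the second it was 0.23.

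NKT arrays had lower Fos than CD4T arrays, with 14.1, 18.6 and 21.4 against 96.5, 30.8 and 41.2. The groups did not overlap, and the first CD4T replicate stood highest. The difference was -1.48 ± 0.60, 2.79-fold lower (n = 3 each), with an unadjusted p of 0.0269 and a limma adjusted p of 0.56. These values were dim, and the difference was -0.84 without the first replicate of each group and -0.75 with an offset of 32 added before log2. CD8aaT arrays read 16.5, 18.5 and 24.5, against 22.8, 12.8 and 30.2 in CD8abT arrays, which overlapped (difference -0.08 ± 0.60). The dimmer Fos probe set lay between 8.56 and 37.0 and did not repeat the B cell difference (0.13 ± 0.28). It was lower by 0.24 ± 0.23 in NKT than in CD4T, with overlap.

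Fosb, a second Fos subunit, was high in the same B1 array as Fos. B1 arrays read 130.4 and 213, against 118 and 131 in B2 arrays. The lower B1 array fell within the B2 range, and the difference was 0.42 ± 0.22 (95% interval -0.07 to 0.90). The T cell pairs differed by -0.19 ± 0.18 (NKT minus CD4T) and 0.12 ± 0.18 (CD8aaT minus CD8abT), with overlap in both.

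Jun, the main partner of Fos, read 76.0 and 99.7 in B1, against 71.9 and 67.1 in B2. Both B1 values were above both B2 values, by 0.33 ± 0.24, with the second B1 array again higher. NKT arrays read 49.9, 46.6 and 43.8, against 60.7, 37.5 and 32.8 in CD4T arrays. The NKT values lay inside the CD4T range (difference 0.15 ± 0.20), and the RTOC groups differed by 0.01 ± 0.20.

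Junb, a Jun protein that can oppose Jun in some settings, was the AP-1 member that went the other way in the second B1 array. Its brighter probe set read 175 and 144 in B1, against 177 and 195 in B2, with no overlap and a difference of -0.23 ± 0.22. The dimmer probe set gave -0.14 ± 0.20 in the same pair. In the T cell pairs both probe sets differed by at most 0.18 log2 units. The dimmer one alone separated the RTOC groups, with 44.8, 46.1 and 46.2 in CD8aaT against 46.7, 48.7 and 60.3 in CD8abT (difference -0.18 ± 0.16).

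Myc, the growth-promoting factor induced early after antigen-receptor ligation, was higher in B1 than in B2 cells, one of the 2 members called in any pair. B1 arrays read 95 and 137, against 40.5 and 30.4 in B2 arrays. Both B1 values were more than double either B2 value. The difference was 1.70 ± 0.27, 3.26-fold higher (95% interval 1.11 to 2.29, n = 2 each), with a limma adjusted p of 0.0044. The adjusted p was 0.093 without the second B2 replicate, 0.094 without the second B1 replicate and 0.11 in a fit of the B cell arrays alone, with differences of 1.5, 1.44 and 1.7. With the offset of 32 the difference was 1.12 and kept its call (adjusted p = 0.0015).

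Myc was dim in the spleen T cells, at 15.9, 15.4 and 15.9 in NKT against 17.1, 21.5 and 21.9 in CD4T. The NKT values were the lower ones without overlap, and the difference of -0.35 ± 0.22 did not pass the test (limma adjusted p = 1.00). CD8aaT arrays read 23.7, 45.3 and 38.9, against 26.2, 30.6 and 34.7 in CD8abT arrays. These overlapped, with the first CD8aaT replicate lowest, and differed by 0.19 ± 0.22.

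Dusp2, a nuclear phosphatase that removes the activating phosphates of MAP kinases, was the other member called, and it was lower in B1 than in B2 cells. B1 arrays read 151 and 155, against 512 and 489.9 in B2 arrays. The replicates lay close together on both sides. The difference was -1.71 ± 0.33, 3.27-fold lower (95% interval -2.41 to -1.01, n = 2 each), with a limma adjusted p of 0.016. Leaving out any 1 of the 4 B cell arrays kept the difference between -1.74 and -1.68 and took the adjusted p to between 0.11 and 0.15, which ended the call.

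In both T cell pairs the mean Dusp2 difference had the other sign, and with all arrays fitted it was not called. NKT arrays read 401, 272 and 262, against 216, 205 and 193 in CD4T arrays. Every NKT value was above every CD4T value, by 0.58 ± 0.27 (1.5-fold), with an unadjusted p of 0.047 and a limma adjusted p of 0.78, and the difference was 0.39 without the first NKT replicate. CD8aaT arrays read 104, 234 and 249, against 124, 137 and 159.9 in CD8abT arrays. The first CD8aaT replicate was the lowest of the 6 and the other two were the highest, and the difference was 0.39 ± 0.27 (limma adjusted p = 0.89). With the first replicate of every group left out it was 0.70 (adjusted p = 0.034).

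Ier2, a small nuclear protein induced with the Fos and Egr genes, was bright in spleen T cells and B cells. B1 arrays read 287 and 295, against 482 and 387 in B2 arrays. The groups did not overlap, and the difference was -0.57 ± 0.23, 1.48-fold lower, with an unadjusted p of 0.0247 and a limma adjusted p of 0.73. NKT arrays read 348, 374 and 364, against 384, 295 and 329 in CD4T arrays, with the NKT values inside the CD4T range (difference 0.11 ± 0.18). The RTOC groups overlapped and differed by -0.01 ± 0.18 (95% interval -0.41 to 0.38).

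**Figure D2:**
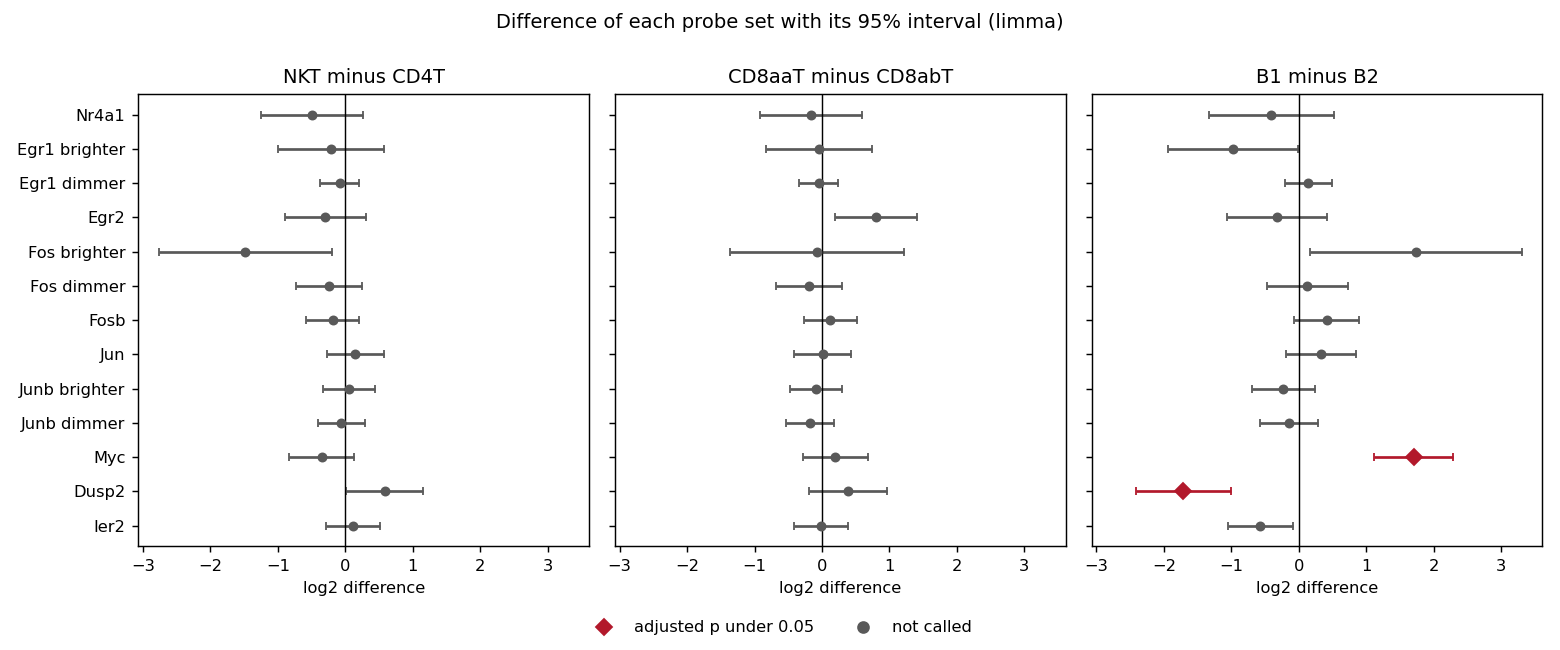
Log2 difference of each of the 13 probe sets in the 3 pairs, innate-like minus conventional, with the 95% interval from limma. Diamonds mark the calls, which were Myc (1.70) and Dusp2 (-1.71) in B1 minus B2; some uncalled intervals also lay on one side of 0, those of Fos and Dusp2 in the NKT pair, Egr2 in the RTOC pair, and Fos, Egr1 and Ier2 in the B cell pair.

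Counted by pair, 0 of the 13 probe sets were called in NKT minus CD4T, where 1.63% of all 12422 probe sets were called, and 1 (Nr4a1, lower) with the replicate block, where 4.84% were. In CD8aaT minus CD8abT 0 of 13 were called, against 0.185% of all, and also 0 with the block (3.2%). In B1 minus B2 the call rule took 2 of 13, against 1.14% of all, with 1 higher (0.789% of all) and 1 lower (0.354%). At an unadjusted p under 0.05 the counts were 2 (6.21% of all), 1 (6.03%) and 5 (4.78%) of 13 in the same order of pairs. The groups did not overlap for 4 of 13 in the NKT pair (12.2% of all), 2 in the RTOC pair (11.3%) and 10 in the B cell pair (32.3%), of which 3 were higher in B1 (Myc, Fos and Jun, against 12.2% of all) and 7 lower (20.1%). The median difference of the 13 was -0.19, -0.05 and -0.14, where that of all probe sets was -0.03, -0.05 and -0.05. In the RTOC pair the group mean was higher at the high agonist dose for 5 of the 13, and for 39.2% of all probe sets.

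The difference between pairs, which share no arrays, was tested for each member. For Myc the NKT pair minus the B1 pair was -2.05 ± 0.35 (limma adjusted p = 0.0072, with 1.35% of all probe sets called). For Dusp2 the NKT pair minus the B1 pair was 2.29 ± 0.42 (adjusted p = 0.011), and the CD8aaT pair minus the B1 pair was 2.10 ± 0.42 (adjusted p = 0.033, with 0.733% of all called). The first Dusp2 difference lost its call without either B2 array or without the second B1 array, and the Myc difference without the second array of either B cell group. The CD8aaT pair's Dusp2 difference lost its call in 13 of 24 alternatives. No member was called in the NKT pair minus the CD8aaT pair (0.692% of all called). For Fos the NKT pair minus the B1 pair was -3.22 ± 0.95 (limma adjusted p = 0.18, and 0.032 with the block). For Myc the CD8aaT pair minus the B1 pair was -1.51 ± 0.35 (limma adjusted p = 0.093, and 0.019 with the block). The block here also pairs the B1 and B2 arrays by number, which was not taken as shown. On the B cell side the Fos value rests on 1 high B1 array.

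**Figure D3:**
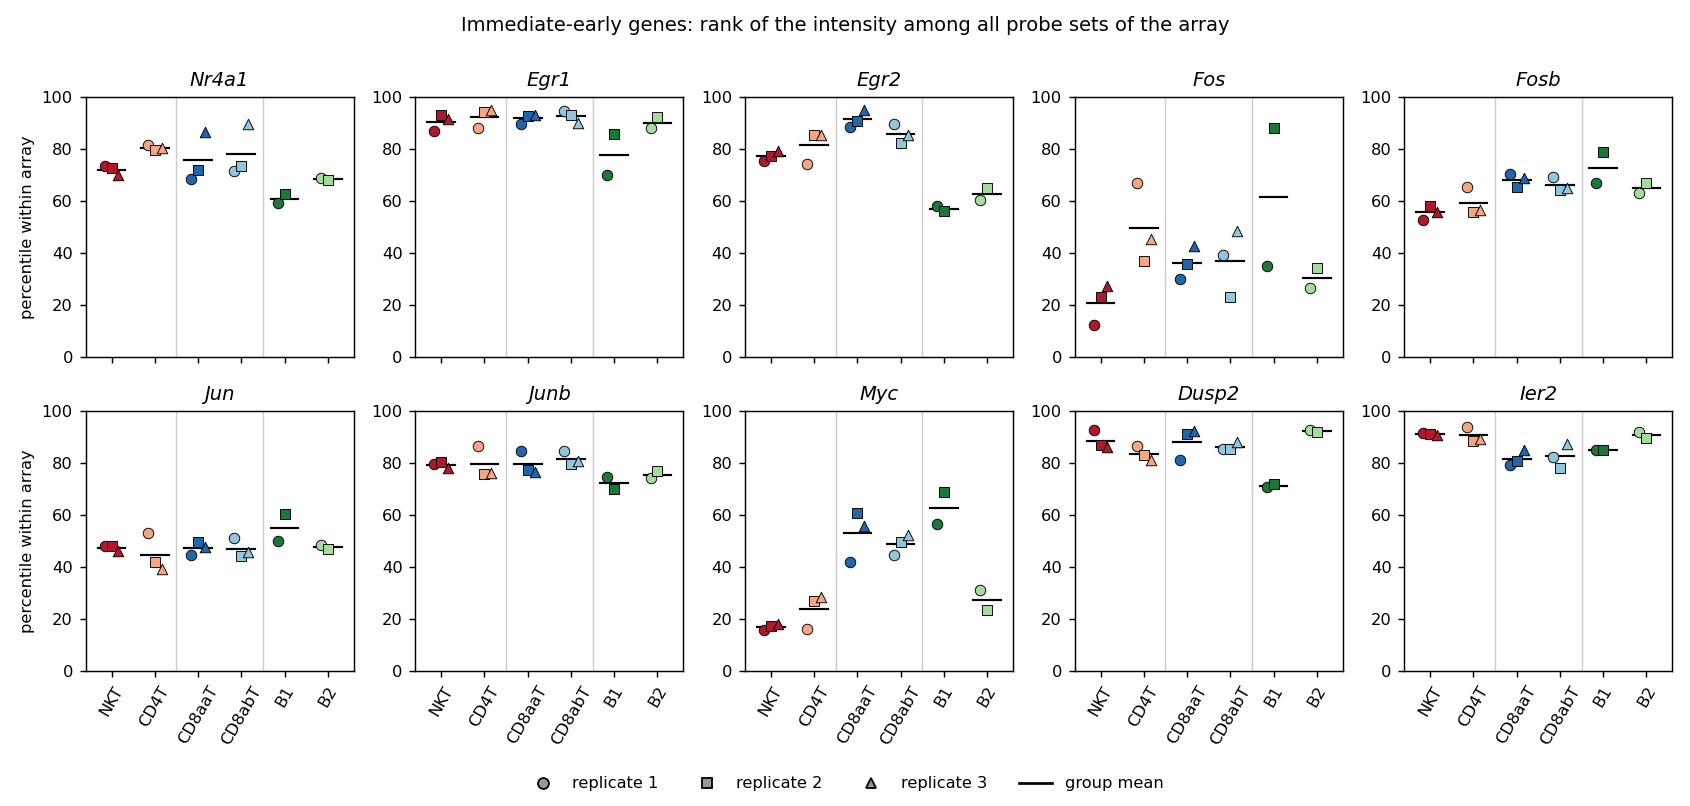
Percentile of each gene's intensity among all probe sets of the same array, by group, with the group mean as a line. Myc has mean percentiles of 62.7 in B1 and 17.0 in NKT, and Dusp2 of 71.3 in B1 and 92.4 in B2.

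Ranked within their own arrays, the members fell into different orders over the 6 groups. Mean percentiles of Myc were 62.7 in B1, 53.0 in CD8aaT, 48.9 in CD8abT, 27.4 in B2, 23.9 in CD4T and 17.0 in NKT. The ranges of neighbours in this order overlapped except between CD8abT and B2. Mean percentiles of Dusp2 were 92.4 in B2, 88.8 in NKT, 88.3 in CD8aaT, 86.3 in CD8abT, 83.6 in CD4T and 71.3 in B1, and B1 was the lowest. Egr2 ranked highest in the RTOC groups (91.5 in CD8aaT and 85.8 in CD8abT), then in CD4T (81.7) and NKT (77.4), and lowest in B2 (62.6) and B1 (57.0). Its ranges overlapped between neighbours down to NKT, and those of NKT, B2 and B1 did not. Nr4a1 ran over 80.4 in CD4T, 78.3 in CD8abT, 75.7 in CD8aaT, 72.0 in NKT, 68.5 in B2 and 60.9 in B1, with NKT, B2 and B1 separate from each other and the rest overlapping. Egr1 stood between 90.2 and 92.7 in all groups but B1, where it was 77.8. Ier2 stood at 91.2 in NKT, 90.9 in B2 and 90.7 in CD4T, above 85.1 in B1, 82.6 in CD8abT and 81.7 in CD8aaT. Fos ran between 20.9 in NKT and 61.6 in B1, Fosb between 55.6 in NKT and 72.8 in B1, Jun between 44.7 in CD4T and 55.2 in B1, and Junb between 72.3 in B1 and 81.7 in CD8abT.

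**Figure D4:**
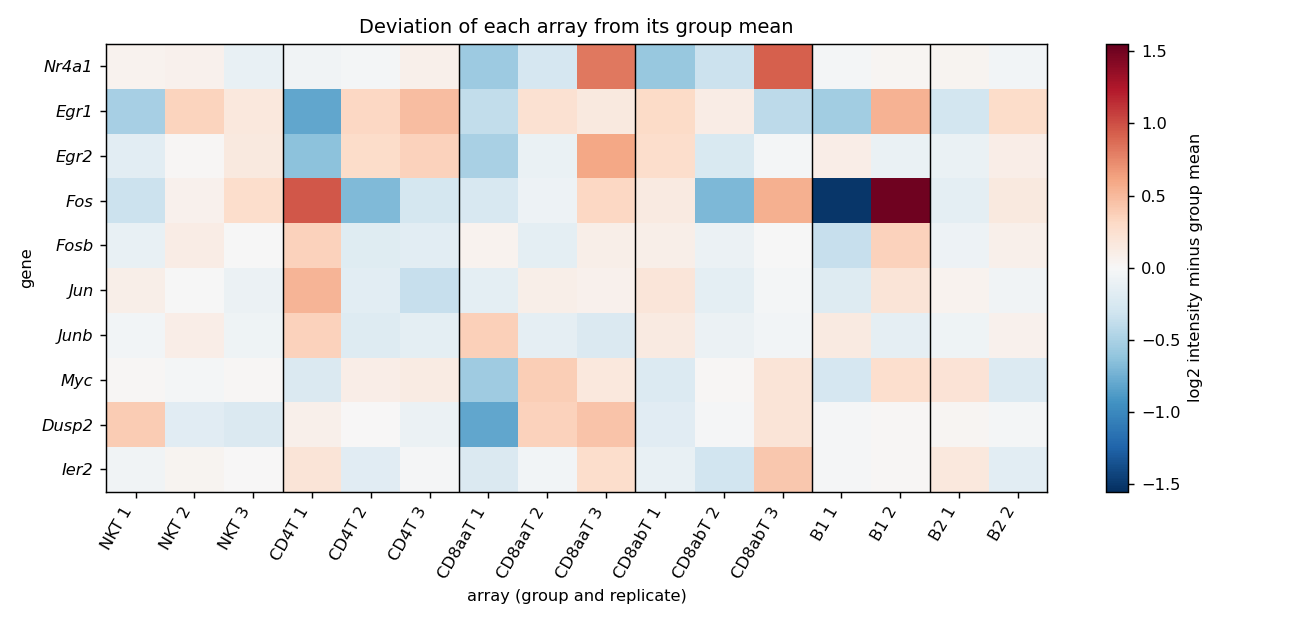
Log2 intensity of each gene minus its group mean, for the 16 arrays. Fos departs by 1.5 on either side in the 2 B1 arrays, equal because a group of 2 has mirrored deviations. Egr1 is low in the first NKT and CD4T arrays, and Nr4a1 is high in the third array of both RTOC groups.

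The members did not move as 1 block between replicates. The second B1 array was above its group mean for 8 of the 10 genes, with Fos the farthest (1.5 log2 units) and Junb the lowest (-0.14). With 2 arrays the deviations of the first are the same with the sign turned. The share of all probe sets above the group mean was not taken for any array, so shifts of whole arrays were not tested. The third CD8aaT array was above for 9 of 10, led by Nr4a1 (0.82), and the first for 2 of 10, with Dusp2 lowest (-0.80). In the first CD4T array Fos was 0.96 above and Egr1 0.80 below its group mean. In that array the 5′ 18S control was 1326 and the actin ratio 7.02, against 54.4 to 59.2 and 3.59 to 3.71 in the other CD4T arrays, and the part of these in the member values was not tested. The correlation of each gene with the mean of the 10, over 16 arrays centred within pairs, ran between -0.42 for Junb and 0.71 for Fos, and each gene is part of that mean. Outside the set the patterns most like that mean were Polr2h (r = 0.80), an RNA polymerase subunit, Nt5dc3 (0.74), Tipin (0.73), which acts at replication forks, Irf4 (0.72), a lymphocyte transcription factor, and Cox16 (0.71), over the same 16 arrays.

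Other genes of the pathway were counted in lists. Of 11 measured immediate-early nuclear factors outside the set none was called in any pair, and the unadjusted p was under 0.05 for 1, Klf4, a zinc-finger factor. Klf4 read 105 and 164 in B1, against 81.9 and 58.4 in B2, a difference of 0.93 ± 0.22 (limma adjusted p = 0.080). It was higher in both B1 arrays. None of the 14 measured kinases and factors upstream was called in any pair, and none had an unadjusted p under 0.05.

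Of 10 measured feedback inhibitors, 2 were called higher in CD8aaT than in CD8abT cells, where 0.185% of all probe sets were called in either direction. Rgs2, which curbs G-protein signals, read 47.9, 85.7 and 74.5 in CD8aaT, against 26.7, 33.3 and 20.5 in CD8abT, a difference of 1.36 ± 0.25 (limma adjusted p = 0.04989). Zfp36l1, which speeds the decay of AU-rich mRNAs, read 228, 299 and 311, against 146, 173 and 134, a difference of 0.88 ± 0.16 (adjusted p = 0.042). Both separated the groups without overlap, but their calls were lost in 16 and 18 of 25 alternatives. In the B cell pair 1 of the 10 was above 0, against 37.2% of all probe sets. The median of the list was 0.18 in the RTOC pair, 0.08 in the NKT pair and -0.36 in the B cell pair. Medians of all genes were -0.04, -0.02 and -0.05. Dusp6, an ERK phosphatase, read 62.8, 137 and 147 in NKT, against 23.3, 48.6 and 54.1 in CD4T, a difference of 1.46 ± 0.35 (adjusted p = 0.056, and 1.3e-05 with the block). In B cells it read 29.1 and 36.8 in B1, against 59.4 and 93.2 in B2, with a difference of -1.18 ± 0.43 (adjusted p = 0.54). In the NKT pair 3 more of the 10 passed with the block alone, where 4.84% of all probe sets passed with it. Rgs2 was higher (0.94 ± 0.25, adjusted p = 0.10, and 0.0055 with the block). Zfp36, which speeds mRNA decay, was lower (-0.61 ± 0.21, adjusted p = 0.32, and 0.0045) and Nab1, a corepressor of Egr factors, was lower (-0.63 ± 0.37, adjusted p = 1.00, and 0.013). Dusp6 lay, like Dusp2, above its partner group in NKT and below it in B1 on every array.

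Of 17 measured later antigen-receptor genes 1 was called, the inhibitory receptor Ctla4, higher in B1, where 0.789% of all probe sets were called higher. It read 60.7 and 132 in B1, against 24.8 and 30 in B2, a difference of 1.71 ± 0.37 (limma adjusted p = 0.035), and its call was lost in 10 of 24 alternatives. In the NKT pair Ctla4 read 44.9, 58.5 and 55.8 in NKT, against 59.9, 118 and 125 in CD4T, without overlap. That difference was -0.87 ± 0.30 (adjusted p = 0.34, and 0.032 with the block). Cd5, whose surface level tracks receptor signalling in T cells, read 453, 390 and 379 in NKT, against 832, 722 and 796 in CD4T, with no overlap. Its difference was -0.95 ± 0.37 (adjusted p = 0.51, and 0.00084 with the block). In the RTOC pair Cd5 read 82, 195 and 147 in high-dose CD8aaT, against 122, 406 and 324 in CD8abT, lower in each same-numbered pair though the groups overlapped. The difference was -0.92 ± 0.37 (adjusted p = 0.74, and 0.0044 with the block). Icos, a costimulatory receptor, was higher in NKT with the block alone (1.0005 ± 0.46, adjusted p = 0.78, and 0.0065 with the block).

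None of 17 measured Myc partners and growth genes was called in any pair. With the block 2 passed in NKT minus CD4T, both higher, where 4.84% of all probe sets passed. They were the cyclin Ccnd2 (0.73 ± 0.29, adjusted p = 0.52, and 0.014 with the block) and the Max partner Mxd4 (0.87 ± 0.54, adjusted p = 1.00, and 0.0033). In CD8aaT minus CD8abT 1 passed with the block (3.2% of all probe sets did), Odc1, the first enzyme of polyamine synthesis (1.10 ± 0.30, adjusted p = 0.32, and 0.031). In B1 minus B2 14 of the 17 genes, by brightest probe set, lay above 0, against 37.2% of all probe sets. Mxi1, a Max partner like Mxd4, was among those above (0.69 ± 0.28, limma adjusted p = 0.79), so the count is not one of growth genes alone. Their median was 0.37, and the median of all genes was -0.05. A tie of these values to Myc was not tested. None of 8 measured heat shock genes was called in any pair, with medians of 0.07, 0.21 and 0.20 in the NKT, RTOC and B cell pairs. With the block 1 passed in the RTOC pair (3.2% of all probe sets did), the co-chaperone Dnajb1, which was higher in CD8aaT without overlap (0.57 ± 0.56, adjusted p = 0.91, and 0.040 with the block).

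**Figure D5:**
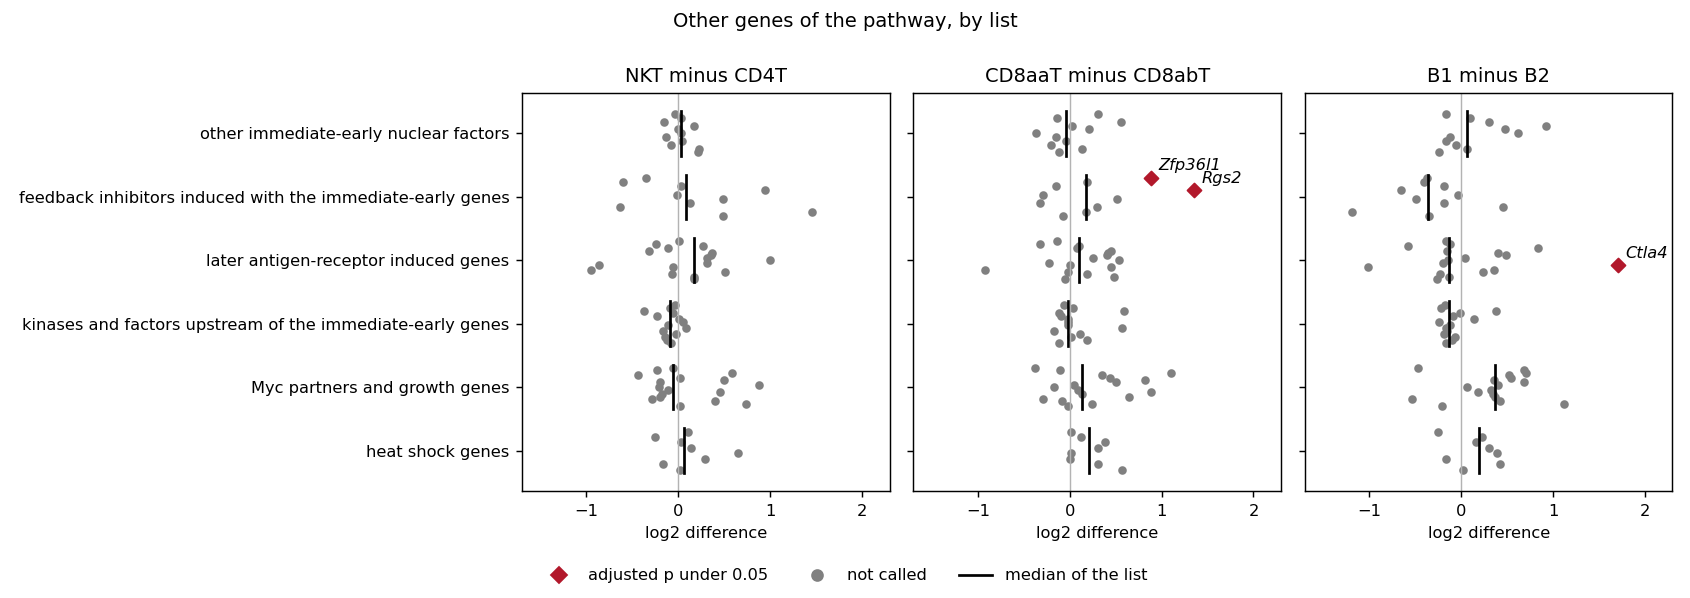
Log2 difference of every measured gene of the 6 pathway lists in the 3 pairs, innate-like minus conventional, 1 point a gene, with a black line at the median of the list. The called genes are named: Rgs2 and Zfp36l1 in the RTOC pair and Ctla4 in the B cell pair.

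Cell type markers were counted in lists, and some of them were called within a pair. Of 11 macrophage markers 2 were called higher in B1 than in B2, where 0.789% of all probe sets were called higher. They were Lyz2 (233 and 89.5 in B1, against 39.1 and 22.2 in B2) and Mpeg1. The summed level of the 11 was 1334 to 1556 in B1, against 869 to 897 in B2. Much of that gap was Mpeg1 (652 and 612 in B1, against 253 and 235 in B2) and Lyz2. The median difference of the 11 was 0.09, with 7 above 0, where 37.2% of all probe sets were. Csf1r was level, at 57.9 and 48.7 in B1 against 58.6 and 49.3 in B2. Adgre1 (F4/80) was 83.1 and 82.6 in B1, against 57.4 and 68.6 in B2. The part of macrophage RNA in the Fos, Myc and Dusp2 differences was not tested. In NKT cells 3 of 11 macrophage markers and 3 of 10 pan-B markers were called higher than in CD4T, where 1.63% of all probe sets were called. The list sums were 706 to 892 against 467 to 641, and 1708 to 3154 against 1062 to 1905. Of the 6 called markers, H2-Ab1 lost its call in 19 of 25 alternatives and Csf1r in 11 of 24. In the RTOC pair 39.2% of all probe sets had a higher mean in CD8aaT. All 8 thymocyte markers had a lower mean there (median -0.43). Of these, 4 had an unadjusted p under 0.05 (6.03% of all probe sets did) and 1 was called (0.185% of all), Cd8b1, the gene of the gate. All 10 pan-T markers also had a lower mean there (median -0.33), with none called. With the block 4 of them were lower (Cd2, Cd5, Cd6 and Thy1), where 3.2% of all probe sets passed in either direction. Lyz2 was also lower with the block (limma adjusted p = 0.049). The thymocyte sums were 361 to 390 in CD8aaT and 1474 to 3097 in CD8abT. Most of the CD8abT sum was the gate gene Cd8b1 itself, which read 1043, 2324 and 2704 there and 31.7, 49.3 and 44.5 in CD8aaT. The gap in these sums is thus largely that of the gate. The pan-T sums were 2875 to 5261 in CD8aaT and 3559 to 6864 in CD8abT. Of the other markers, Dntt was lower in NKT than in CD4T, a call lost in 16 of 24 alternatives, Epcam higher in B1 than in B2, and Cd22 and Cd72 lower in B1, and none of 9 granulocyte and mast cell or 3 erythroid and platelet markers was called in any pair. With the block Zap70 was higher and Cd247 and Cd4 were lower in NKT than in CD4T. Their part in the member values was not tested.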

How the data were processed

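RNA of the sorted cells was measured on 16 single-colour arrays. The authors deposited intensity values on a linear scale, made with RMA per the submitters' processing notes; how the arrays were grouped in that step is not given in the sources used here. Of 12488 probe sets, 66 controls were left out, and 12422 were tested, of which 10833 had 1 gene symbol in the platform annotation, 396 several and 1193 none listed. Arrays carry no counts, so their number limits the precision.

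Intensities were taken to log2 and fitted in limma 3.58.1 (R 4.3.3) with 6 group means over all 16 arrays. Contrasts were the 3 pair differences and the 3 differences between pairs, with Benjamini-Hochberg adjustment over all 12422 probe sets and a threshold of 0.05. The fit was tested on simulated data. The members, the gene lists and the tests were chosen with earlier results of these data known. All member probe sets are named; of each list the called genes are named, or else up to 3 with the smallest unadjusted p, and not all of these are printed; the genes most like the member mean are the 5 with the highest correlation. List genes that passed only with the replicate block in a T cell pair are named too, a choice made after their values were seen. A list gene is represented by its brightest probe set.

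The labels' replicate numbers were checked as pairs: deviations of same-numbered arrays from their group means correlated at 0.76, 0.65 and 0.67 for the NKT pair, and at 0.64, 0.60 and 0.66 for the RTOC pair, so the numbers were taken to pair these samples. No label says what a number shares. The 2 numbers of B1 and B2 (0.69) are too few to tell. The 25 alternatives were each of the 16 arrays left out, the first replicate of each group left out, the replicate block, the 2 groups alone, an offset of 32 before log2, quantile normalization, no dim probe sets, eBayes with trend and robust, 1 probe set a gene, and the beta-actin ratio as a covariate.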

Additional observations from a re-analysis of the deposited data

Results flagged for a closer look

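The difference between pairs passed the test for Myc and Dusp2. For Myc the NKT pair minus the B1 pair was -2.05, with a pair difference of -0.35 in NKT minus CD4T and 1.70 in B1 minus B2. For Dusp2 the NKT pair minus the B1 pair was 2.29, from 0.58 in NKT minus CD4T and -1.71 in B1 minus B2. For Dusp2 the CD8aaT pair minus the B1 pair was 2.10, from 0.39 in CD8aaT minus CD8abT and the same B cell difference. All 3 rest on 2 B1 and 2 B2 arrays, and groups of 2 and 3 arrays were too small for a check of single outlying samples.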

How the results depend on the processing

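Of the 2 B cell calls, Myc held in 21 of 24 alternatives and Dusp2 in 21 of 25, and the direction of both held in all of them. With the replicate block the members called were 1 in the NKT pair (Nr4a1), 0 in the RTOC pair and 2 in the B cell pair. All probe sets called in these pairs were 601, 398 and 353, against 202, 23 and 142 without the block. Among the differences between pairs 5 member calls were made with the block (Fos and Myc added). The share of all probe sets called there with the block was not taken, so that count is not read as a result about the members. No other member call within a pair changed under the block, and in the B cell pair, whose numbers were not taken as pairs, it gave an adjusted p of 0.042 for Klf4 and 0.00034 for Dusp6. Leaving out 1 array gave 0 members in both T cell pairs, 0 to 2 in the B cell pair and 0 to 3 between pairs, and 134 to 242, 10 to 57 and 64 to 164 of all probe sets in the NKT, RTOC and B cell pairs. Without the first replicate of each group 1 member was called in the RTOC pair (Dusp2), and 7 between pairs, with 356, 190 and 227 of all probe sets. Fitting the 2 groups alone left 1 member in the B cell pair, and 2 (RTOC) and 50 (B cell) of all probe sets. The offset gave 9 (RTOC) and 214 (B cell) of all probe sets. Dropping dim probe sets, which removed Myc from the test, left 1 member in the B cell pair, and 133 (NKT) and 71 (B cell) of all probe sets. The actin covariate left 11 in the RTOC pair. Uncalled differences near 0 changed sign. Without the first replicates, CD8aaT minus CD8abT was 0.289 for Egr1, 0.117 for Fos and 0.0399 for Ier2, and NKT minus CD4T was 0.0455 for Fosb and 0.184 for the dimmer Junb. With the actin covariate CD8aaT minus CD8abT was 0.0664 for Fos, 0.0304 for Junb and 0.00756 for Ier2, and with quantile normalization NKT minus CD4T was -0.0333 for Junb. With 1 array left out, NKT minus CD4T ran over -0.615 to 0.0413 for Egr1, -0.0313 to 0.414 for Jun, -0.0535 to 0.229 for Junb and -0.193 to 0.141 for its dimmer probe set. CD8aaT minus CD8abT ran over -0.568 to 0.301 for Nr4a1, -0.249 to 0.142 for Egr1, -0.132 to 0.0526 for its dimmer probe set, -0.422 to 0.2003 for Fos, -0.398 to 0.0696 for its dimmer probe set, -0.0679 to 0.101 for Jun, -0.264 to 0.0276 for Junb and -0.162 to 0.194 for Ier2. B1 minus B2 ran over -0.0283 to 0.316 for the dimmer Egr1 and -0.0191 to 0.275 for the dimmer Fos probe set. The cause of these changes was not tested. Where 1 array of a B cell group was left, its spread was taken from the other groups.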

Other observations

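In B1 cells the D-type cyclin Ccnd2, listed among the growth genes, read 1059 and 506, against 368 and 308 in B2 cells (limma adjusted p = 0.31).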
